A study of Mus musculus with 14 samples.

Results

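This report describes 10 transcriptional targets of p53 in mouse kidney: Eda2r, Ccng1, Psrc1, Zmat3, Phlda3, Cdkn1a, Mdm2, Bax, Trp53inp1 and Aen. They were chosen by symbol, with the difference between streptozotocin-treated and untreated kidneys of these same libraries known. Their values with streptozotocin (STZ) are therefore given as a description, with no p-value. All 10 were found among the 56980 gene IDs of the counts, and all 10 are among the 22339 genes with more than 10 counts in total over the 14 libraries.

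Messenger RNA of whole kidneys from wild-type female CD-1 mice, an outbred stock, was sequenced at 18 weeks of age. Term nondiabetic (T-ND, n = 4) and preterm nondiabetic (PT-ND, n = 3) mice received no STZ, and term diabetic (T-D, n = 4) and preterm diabetic (PT-D, n = 3) mice were given STZ by injection as young adults. Preterm mice were delivered by Caesarean section before term and raised by foster mothers that drank acepromazine, whereas term mice stayed with their own mothers, so that preterm birth, the delivery and the fostering cannot be told apart. STZ itself and the hyperglycemia it was given to induce cannot be told apart either. Some PT-D mice of the study, and no T-D mouse, had a second round of STZ, and the sources used here do not say which of the sequenced mice had it. Mice of all groups had cationic ferritin injected shortly before the kidneys were taken. Each library is a separate mouse and held between 16697246 and 28673176 counts on genes, and in whole kidney a change in the share of a cell type and a change in its RNA per cell cannot be told apart.

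p53, the product of Trp53, is a transcription factor that is stabilised when DNA is damaged. It binds a response element made of a pair of similar 10-base stretches and raises the transcription of genes that halt the cell cycle, repair DNA, end the life of the cell or, as with Mdm2, switch p53 itself off again. STZ is a glucosamine joined to a nitrosourea. It enters cells through the glucose transporter GLUT2 (Slc2a2), alkylates DNA and is used to destroy pancreatic beta cells, and the proximal tubule of the kidney also carries GLUT2.

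The DNA near the start sites of these genes was searched for the p53 response element, because p53 acts through it. The letters are those of the reference genome and not of CD-1 mice. The search covered 5000 bases on each side of the start site of the canonical transcript, which can lie inside the span from the outermost start to end given for a gene, and distances are counted from it to the middle of the match. It was made for 16165 tested protein-coding genes on GRCm39, on both strands. It asked for the p53 consensus of 20 bases with no spacer, with the C and G at the core of each 10-base stretch fixed and at most 2 mismatches elsewhere. At most 1 mismatch was found near 4 of the 10 genes (40.0%), against 1.89% of all genes searched and 3 of 56 other p53 targets (5.36%). With up to 2 mismatches the number was 6 of 10, against 11% of all genes and 23.2% of the other targets. No match in this window was found for Mdm2, Phlda3, Trp53inp1 and Aen, which says only that these letters are not there. The closest matches are printed below 5′ to 3′ on the strand of the gene, with the 20 bases of the match in capitals and 5 bases on each side in lower case.
Zmat3, no mismatch, 1419 bases after the start site, chr3:32418480-32418499, minus strand: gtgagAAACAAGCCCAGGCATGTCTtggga
Ccng1, 1 mismatch, at −160 from the start site, chr11:40646289-40646308, minus strand: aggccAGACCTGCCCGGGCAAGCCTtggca
Ccng1, 1 mismatch, in an intron at 366, chr11:40645763-40645782, minus strand: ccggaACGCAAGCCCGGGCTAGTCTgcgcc
Psrc1, 1 mismatch, in an intron at 861, chr3:108291972-108291991, plus strand: tccctGGGCATGTTGAGGCATGCCCtgcaa
Cdkn1a, 1 mismatch, at −2827, chr17:29309902-29309921, plus strand: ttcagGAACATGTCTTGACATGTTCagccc
Eda2r, 2 mismatches, in an exon at 690, chrX:96420140-96420159, minus strand: tgcctGGGCAAGTCCGGGCCTGTGTaaaaa
Bax, 2 mismatches, in an exon at 318, chr7:45115998-45116017, minus strand: cccccGGGCAGGCCCGGGCTTGTCGctggc
The Zmat3 match lies in an exon of an alternative transcript, and a further match to Zmat3 with 1 mismatch lies at −4401. Zmat3 is 1 of 39 genes in the search, or 0.241% of them, with a match free of mismatches. Whether p53 was bound at any of these sites was not measured.

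With STZ, the 10 genes were higher in nearly every kidney, and by very different amounts. In term mice the log2 fold change between T-D and T-ND ran from 0.50 for Mdm2 to 3.77 for Eda2r, with a median of 1.34 where the median of all genes was −0.02. In preterm mice it ran from −0.28 for Bax to 4.77 for Eda2r, with a median of 1.54 against 0.05 for all genes. Each T-D kidney stood above each T-ND kidney for 9 of the 10 genes, the exception being Trp53inp1, and the same held for 2.9% of all genes. Each PT-D kidney stood above each PT-ND kidney for 9 of 10, the exception being Bax, against 18.7% of all genes. The study calls genes differentially expressed (DEGs) when their log2 fold change lies beyond 1 or −1 and their adjusted p is under 0.05. By that rule 3 members were DEGs in T-D compared to T-ND (Psrc1, Ccng1 and Eda2r), with 0.0539% of all genes higher by the same rule. For PT-D compared to PT-ND there were 6 DEGs, with 2.96% of all genes higher. By the adjusted p-value alone 9 passed there, with 7.14% of all genes. Averaged over term and preterm mice 7 were DEGs (0.801% of all genes higher) and 9 passed the adjusted p-value (1.65%). In PT-D compared to T-ND 6 were DEGs (0.995%). Nothing is read from these counts, since the members were chosen on these contrasts. The count of 3 in term mice rested on single libraries. It was 1, Ccng1 alone, without T-ND replicate 1, T-ND replicate 2 or T-D replicate 2, and 6 without T-ND replicate 3.

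**Figure D1:**
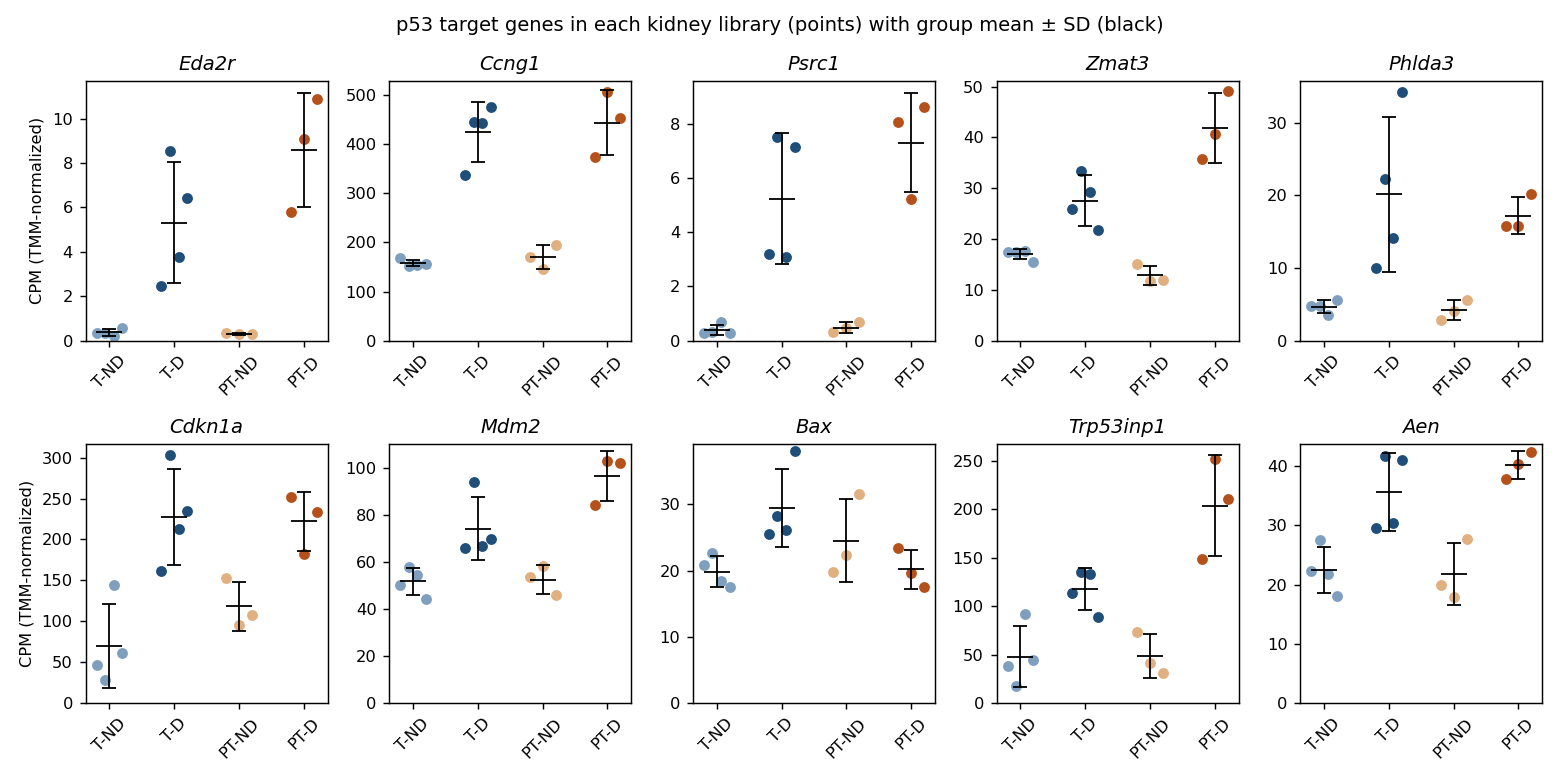
Level in CPM (counts per 1000000, TMM-normalized) of each of the 10 genes on the vertical axis, with the 14 kidney libraries as points in their 4 groups and the group mean ± SD in black. Eda2r and Psrc1 lie below 1 CPM in all mice without STZ, and Bax is the gene whose PT-D kidneys do not stand above PT-ND.

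**Figure D2:**
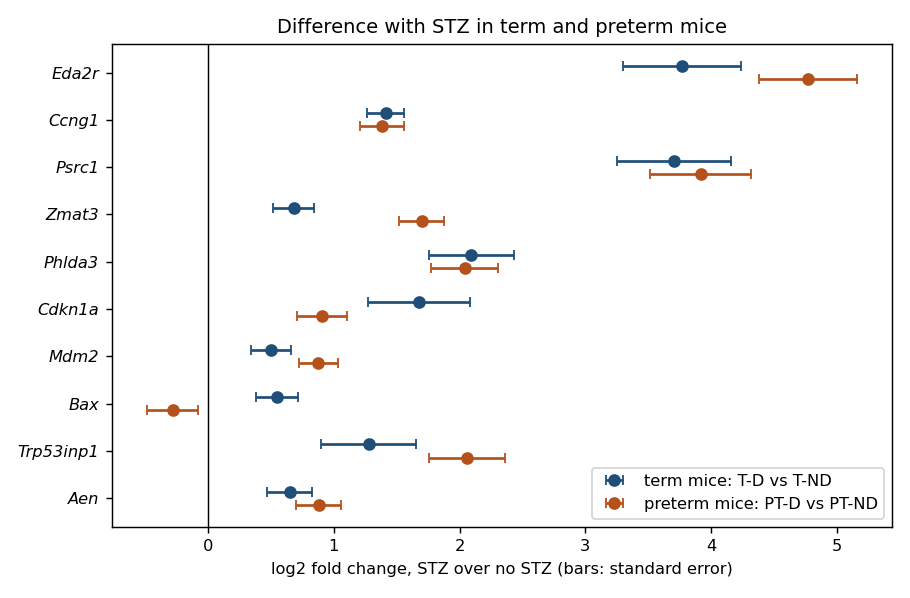
Log2 fold change with STZ (horizontal axis) of each gene in term mice (T-D compared to T-ND) and in preterm mice (PT-D compared to PT-ND), with standard errors as bars. The values run from −0.28 for Bax in preterm mice to 4.77 for Eda2r in preterm mice.

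Eda2r and Psrc1 went from close to undetected to clearly measurable. Eda2r (ENSMUSG00000034457.11, chromosome X from 96320270 to 96420847, minus strand) encodes a receptor of the TNF receptor superfamily that binds the A2 form of ectodysplasin A. Levels are given as CPM, the counts per 1000000 counts of the library after scaling with TMM factors. Eda2r had 0.352, 0.361, 0.207 and 0.584 CPM in T-ND and 0.361, 0.280 and 0.285 in PT-ND, from 4 to 11 reads per library. It had 2.46, 8.55, 3.77 and 6.43 CPM in T-D and 5.82, 9.07 and 10.9 in PT-D, from 44 to 275 reads. All 7 STZ kidneys thus stood well above the 7 others, with T-D replicate 1 the lowest of them. The group means were 14.1-fold higher in T-D than in T-ND and 27.8-fold higher in PT-D than in PT-ND, with log2 fold changes of 3.77 ± 0.47 and 4.77 ± 0.39 (standard error). With 11 reads or fewer in each untreated kidney, both folds rest on a denominator of few reads.

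Psrc1 (ENSMUSG00000068744.13, chromosome 3 from 108288765 to 108295547, plus strand) encodes a microtubule-associated protein of the mitotic spindle. It had 0.294, 0.316, 0.673 and 0.266 CPM in T-ND and 0.309, 0.447 and 0.684 in PT-ND. It had 3.19, 7.53, 3.09 and 7.13 CPM in T-D and 8.07, 5.21 and 8.62 in PT-D. No STZ kidney overlapped with an untreated one, and the T-D kidneys fell into a lower and a higher pair. Group means were 13.5-fold higher in term and 15.2-fold higher in preterm mice, with log2 fold changes of 3.71 ± 0.45 and 3.92 ± 0.40.

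Ccng1, Cdkn1a and Mdm2 act on the cell cycle and on p53 itself. Ccng1 (ENSMUSG00000020326.8, chromosome 11 from 40639377 to 40646148, minus strand) encodes cyclin G1, which recruits a phosphatase to MDM2. Its level was 152 to 167 CPM in T-ND and 147 to 194 in PT-ND, and 337, 446, 443 and 475 CPM in T-D and 374, 506 and 453 in PT-D. The spread within a group was small beside the distance between groups, and the lowest STZ kidney, T-D replicate 1, still had 337 CPM. The log2 fold change was almost the same in term (1.41 ± 0.15) and preterm mice (1.39 ± 0.17).

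Cdkn1a (ENSMUSG00000023067.15, chromosome 17 from 29309936 to 29319701, plus strand) encodes p21, the cyclin-dependent kinase inhibitor that carries out much of the arrest by p53. It had 47.0, 28.1, 144 and 61.7 CPM in T-ND and 153, 95.7 and 108 in PT-ND. It had 161, 303, 213 and 235 CPM in T-D and 251, 182 and 234 in PT-D. The untreated kidneys varied widely, T-ND replicate 3 and PT-ND replicate 1 coming close to the lowest T-D kidney. The log2 fold change was 1.68 ± 0.41 in term and 0.91 ± 0.20 in preterm mice. Of its exon bases 12.5% overlap other genes, both on the opposite strand, and unstranded counting cannot assign reads there.

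Mdm2 (ENSMUSG00000020184.16, chromosome 10 from 117524780 to 117546730, minus strand), the ubiquitin ligase that removes p53, lay between 44.4 and 57.7 CPM in T-ND and between 45.7 and 58.3 in PT-ND. It lay between 65.8 and 94.0 CPM in T-D and between 84.0 and 103 in PT-D, above every untreated kidney. The log2 fold change was 0.50 ± 0.16 in term and 0.88 ± 0.16 in preterm mice, under the size the DEG rule asks for in both.

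The other 5 genes act in cell death, survival signalling and RNA processing. Phlda3 (ENSMUSG00000041801.6, chromosome 1 from 135693809 to 135697686, plus strand) encodes a pleckstrin homology protein that holds back AKT. It had 4.76, 4.70, 3.47 and 5.63 CPM in T-ND and 2.84, 4.08 and 5.65 in PT-ND. It had 9.96, 22.2, 14.1 and 34.2 CPM in T-D and 15.8, 15.7 and 20.1 in PT-D. The T-D kidneys covered a wide range, with T-D replicate 4 the highest and T-D replicate 1 the lowest of all STZ kidneys. The log2 fold changes were 2.09 ± 0.34 and 2.04 ± 0.27.

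Trp53inp1 (ENSMUSG00000028211.12, chromosome 4 from 11156412 to 11175230, plus strand) encodes a stress-induced protein that promotes p53-dependent death and autophagy. It had 38.5, 17.5, 91.6 and 45.1 CPM in T-ND and 114, 135, 134 and 89.5 in T-D, so that T-ND replicate 3 stood above T-D replicate 4. It had 73.9, 41.9 and 30.9 CPM in PT-ND and 149, 252 and 211 in PT-D, without overlap. The log2 fold change was 1.28 ± 0.38 in term and 2.06 ± 0.30 in preterm mice.

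Zmat3 (ENSMUSG00000027663.13, chromosome 3 from 32388941 to 32420163, minus strand) encodes a zinc finger protein that binds RNA and takes part in splicing. It was among the steadiest of the 10 in T-ND, with 17.4, 17.4, 17.6 and 15.5 CPM, and had 15, 11.7 and 11.9 CPM in PT-ND. It had 25.8, 33.4, 29.3 and 21.7 CPM in T-D and 35.7, 40.7 and 49.2 in PT-D. The 4 groups lay in the order PT-ND, T-ND, T-D, PT-D, and no library of one overlapped with the next. The log2 fold change was 0.68 ± 0.16 in term and 1.70 ± 0.18 in preterm mice.

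Aen (ENSMUSG00000030609.19, chromosome 7 from 78545602 to 78560957, plus strand), an apoptosis-enhancing nuclease, lay between 18.1 and 27.5 CPM in T-ND and between 17.9 and 27.7 in PT-ND. It lay between 29.5 and 41.7 CPM in T-D and between 37.7 and 42.4 in PT-D. The groups with and without STZ did not overlap, and the log2 fold changes were 0.65 ± 0.18 and 0.88 ± 0.18.

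Bax (ENSMUSG00000003873.12, chromosome 7 from 45111015 to 45116325, minus strand), the BCL2 family protein that opens the outer mitochondrial membrane, departed from the others. It had 20.9, 22.7, 18.4 and 17.5 CPM in T-ND and 25.5, 28.2, 26.1 and 38.1 in T-D, without overlap. It had 19.7, 22.3 and 31.6 CPM in PT-ND and 23.4, 19.7 and 17.6 in PT-D. The highest kidney of the preterm mice was thus an untreated one, PT-ND replicate 3, and PT-D replicate 3 was the lowest. The log2 fold change was 0.55 ± 0.17 in term and −0.28 ± 0.20 in preterm mice. Of the exon bases of Bax 13.6% overlap other genes, one of them on the same strand.

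Per length of exon, the levels of the 10 genes spanned more than their folds did. In T-ND the means per kilobase of exon were highest for Ccng1 with 35.9 CPM per kilobase, followed by Cdkn1a with 11.6 and Bax with 10.7, and lowest for Psrc1 with 0.101 and Eda2r with 0.0502. In PT-D Ccng1 again stood first with 101.0 CPM per kilobase and Cdkn1a came next with 36.8, whereas Trp53inp1 with 27.8 stood above Bax with 10.9. Psrc1 with 1.90 and Eda2r with 1.15 remained the lowest in PT-D in spite of the highest folds.

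Without STZ, preterm birth was not accompanied by a detectable difference in any of the 10 genes. None was a DEG in PT-ND compared to T-ND by edgeR's quasi-likelihood test, where 0.0719% of all genes were higher and 0.00899% lower. The smallest adjusted p of the 10 was 0.425, 1 gene (Zmat3) had an unadjusted p under 0.05, and DESeq2 called none. Zmat3 had 16.97 ± 0.98 CPM in T-ND (SD, n = 4) and 12.9 ± 1.85 in PT-ND (SD, n = 3), a log2 difference of −0.40 (95% interval −0.75 to −0.05). Cdkn1a had the largest difference, 0.76 with an interval of −0.20 to 1.71. The intervals of Eda2r (−1.71 to 1.15) and Psrc1 (−1.08 to 1.69) were wide at their few reads, and those of Ccng1 (−0.18 to 0.40) and Mdm2 (−0.29 to 0.34) were narrow.

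Among mice given STZ, the 10 genes did not separate preterm from term kidneys by the DEG rule either. None was a DEG in PT-D compared to T-D by edgeR, where 0.135% of all genes were higher and 0.0583% lower, and DESeq2 called none. An unadjusted p under 0.05 was found for 3 of them, with a smallest adjusted p of 0.0889. They were Trp53inp1, at 0.78 higher on the log2 scale in PT-D (95% interval 0.32 to 1.24, adjusted p = 0.0889), Zmat3 (0.60, interval 0.20 to 1.00, adjusted p = 0.103) and Bax (−0.55, interval −0.97 to −0.12, adjusted p = 0.138) in edgeR's test. By the adjusted p alone, DESeq2 passed 2 of the 10, Trp53inp1 (adjusted p = 0.0165) and Zmat3 (adjusted p = 0.0433). The shares of all genes given above are of DEGs by edgeR, and none was counted for this rule. Each PT-D kidney stood above each T-D kidney for Zmat3 and Trp53inp1. The share of all genes for which this held was not counted, so nothing is read from it. The interval of Ccng1 was −0.35 to 0.46 and that of Cdkn1a −0.52 to 0.44, and larger differences in either direction lay outside these intervals.

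Whether the STZ difference itself depended on birth was tested as an interaction over all 14 libraries. It shares its libraries with the contrasts the members were chosen on and is not independent of that choice. Of the 10, Zmat3 passed: its log2 fold change with STZ was 1.00 larger in preterm than in term mice (95% interval 0.50 to 1.5, adjusted p = 0.0301, edgeR's quasi-likelihood test with Benjamini-Hochberg adjustment). Among all genes 1.98% were DEGs with a higher and 2.46% with a lower STZ difference in preterm mice. The Zmat3 value lies right at the size limit of 1. Its adjusted p stayed under 0.05 in all 7 other settings of the fit, and its size fell under 1 in 3 of them, DESeq2, RLE normalization and filterByExpr. When single libraries were left out, the adjusted p stayed under 0.05 in 9 of 14 fits. It was 0.0501 without T-ND replicate 1, 0.0696 without PT-ND replicate 2, 0.0857 without PT-ND replicate 3, 0.0562 without PT-D replicate 2 and 0.0920 without PT-D replicate 3. Bax differed in the opposite direction by −0.85 (interval −1.42 to −0.28) with an adjusted p of 0.0657, which missed the threshold in edgeR's test, whereas DESeq2 passed it at −0.89 (adjusted p = 0.0244), with a size under 1 in both. For Ccng1 the difference was −0.04 with an interval of −0.51 to 0.42, and for Eda2r it was 0.98 with an interval of −0.42 to 2.37.

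**Figure D3:**
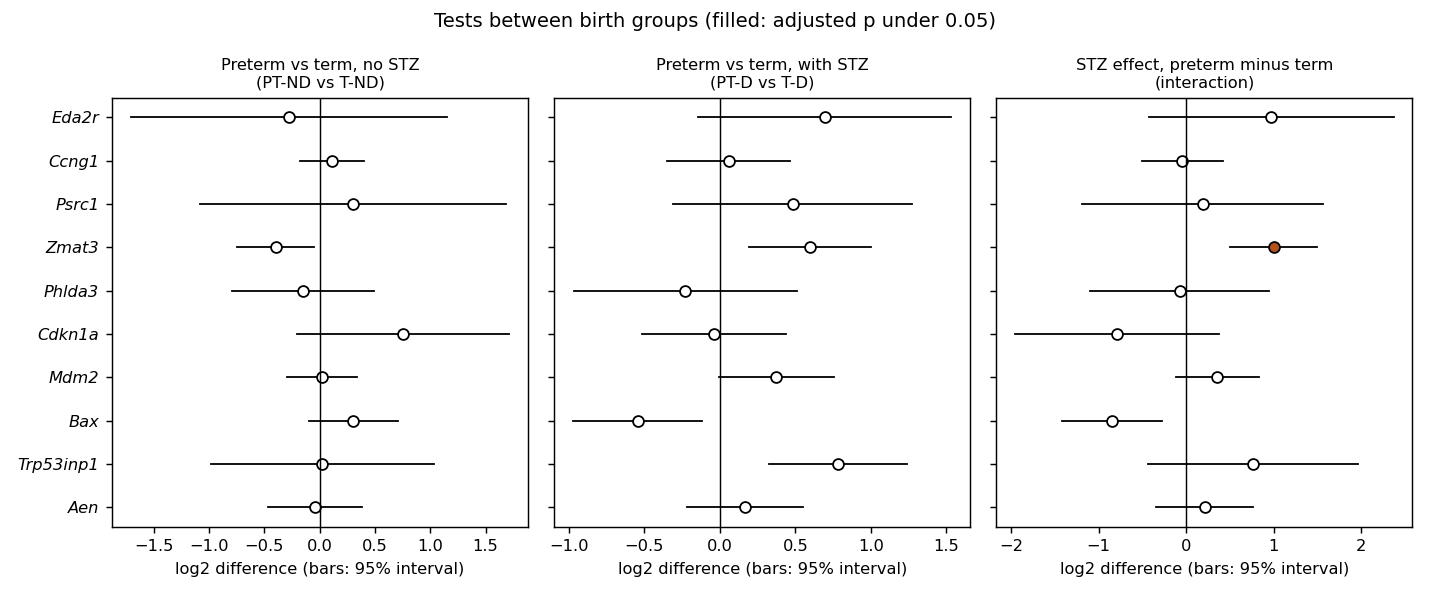
Log2 differences of the 10 genes with 95% intervals between preterm and term mice without STZ (left), with STZ (middle), and in the STZ difference itself (right). The filled point is Zmat3 in the interaction, at 1.00, with an adjusted p under 0.05, and the open points did not pass.

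The markers of other cell types and of tubular injury did not stay level between the groups. The summed level of the 7 leukocyte markers was 19.3 to 36.5 CPM in T-ND, 22.0 to 43.1 in T-D, 27.6 to 42.2 in PT-ND and 55.3 to 108.5 in PT-D. Ptprc, which encodes the leukocyte antigen CD45, was at 6.73 ± 1.80 CPM in T-ND (SD, n = 4) and 14.5 ± 2.53 in PT-D (SD, n = 3). The 5 endothelial markers summed to 233 to 264 CPM in T-ND, 147 to 249 in T-D, 159 to 287 in PT-ND and 324 to 407 in PT-D. The 6 markers of injured tubule summed to 1533 to 2227 CPM in T-ND, 1980.0 to 3563 in T-D, 1693 to 1874 in PT-ND and 2762 to 3156 in PT-D. Such a sum is set mostly by the most abundant genes of a list. The median log2 fold change of the 6 was 0.80 in T-D compared to T-ND and 1.5 in PT-D compared to PT-ND. The part of these cells in the values of the 10 genes was not tested. The sums of the 7 proximal tubule markers overlapped between all groups (5769 to 8938 CPM over all libraries), and Slc34a1, the phosphate transporter of that segment, had 2708 to 4554 CPM in T-ND, 4102 to 4490 in PT-ND and 3960.0 to 4443 in PT-D. In T-D it had 4524, 4834 and 4667 CPM in replicates 1 to 3 and 2211 in T-D replicate 4, which also had the largest share of unmapped reads (5.16%, against 1.60% to 4.01% in the other libraries). Without T-D replicate 4 the same number of members, 3, were DEGs in T-D compared to T-ND. Havcr1, which encodes the injury molecule KIM-1, had 130, 122, 64.5 and 2.82 CPM in T-ND, 1.96 to 9.99 in T-D, 4.08 to 5.99 in PT-ND, and 4.82, 79.1 and 64.9 in PT-D. It rose in PT-D compared to PT-ND (log2 fold change 3.24 ± 0.73, adjusted p = 0.0185), a call kept in 4 of 6 fits with 1 library left out. Its value in T-D compared to T-ND was −3.97 ± 0.85 (adjusted p = 0.122), and the interaction was 7.18 ± 1.37 (adjusted p = 0.0187). The 5 podocyte markers summed to 241 to 340 CPM in T-ND, 149.5 to 475.3 in T-D, 269 to 464 in PT-ND and 496 to 658 in PT-D. The 4 stromal markers summed to 78.6 to 89.5, 50.01 to 108.6, 73.4 to 124 and 72.2 to 188 CPM in the same order. The 4 collecting duct markers summed to 492 to 925 CPM in T-ND, 460.3 to 590.3 in T-D, 470.4 to 892 in PT-ND and 253 to 571 in PT-D. The 4 markers of the loop of Henle and distal tubule summed to 3069 to 3939 CPM in T-ND and 1752 to 2837 in T-D, which was lower in each T-D kidney, and to 2256 to 3141 in PT-ND and 1391 to 3317 in PT-D.

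The 10 genes moved together from group to group but only in part from mouse to mouse. Over the 14 libraries, the correlation of a gene's log2(CPM + 1) with the mean profile of the other 9 was 0.984 for Psrc1, 0.975 for Ccng1 and 0.972 for Eda2r, and 0.227 for Bax. After the mean of each group had been subtracted, it was 0.789 for Eda2r and 0.705 for Psrc1, but 0.184 for Zmat3, 0.0925 for Bax and −0.0186 for Trp53inp1. Of the 45 pairs of genes 34 had a correlation above 0 within groups, and 13 had one above 0.5, with a median of 0.216. The highest was that of Cdkn1a with Trp53inp1 (0.784), which were both highest of their group in T-ND replicate 3 and in PT-ND replicate 1, and the lowest that of Bax with Trp53inp1 (−0.674). These are descriptions over 14 libraries that share their depth and composition between genes. The mean of the 10 genes, as log2(CPM + 1) above the T-ND mean, was −0.16 to 0.22 in T-ND, close to 0 to 0.15 in PT-ND, 0.96 to 1.62 in T-D and 1.45 to 1.69 in PT-D, an order that the choice of the genes fixes.

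**Figure D4:**
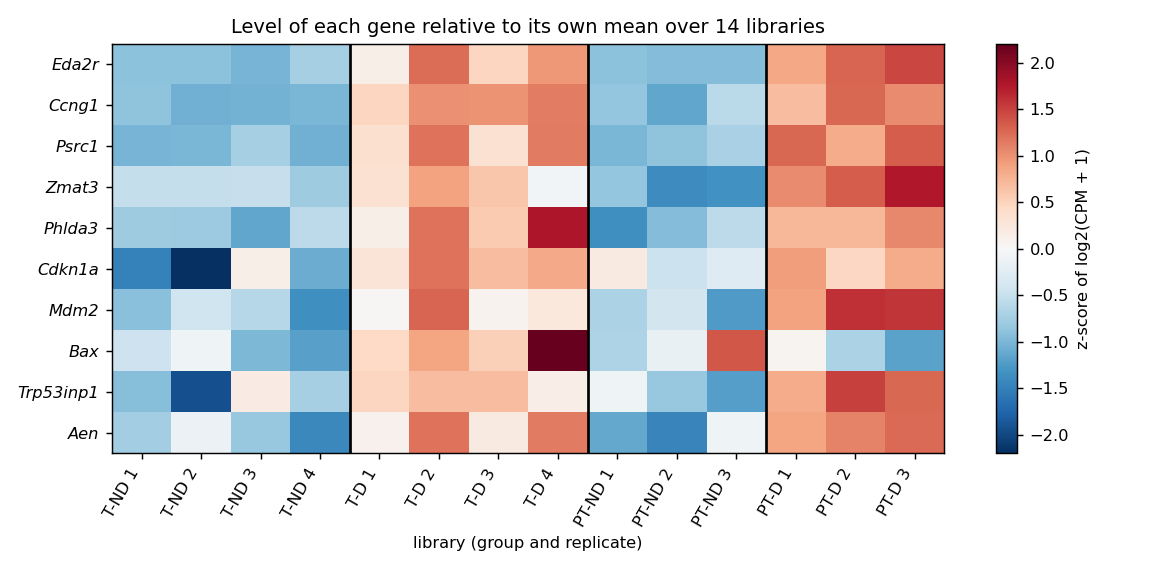
Level of each gene (rows) in each library (columns, by group) as a z-score of log2(CPM + 1) over the 14 libraries, from blue (below its mean) to red (above). Bax in PT-ND replicate 3 and in T-D replicate 4 breaks the pattern of its group, and Cdkn1a and Trp53inp1 are lowest in T-ND replicate 2.

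The 5 genes outside the list whose profile over the 14 libraries was most like the mean z-score of the 10, among 10797 genes with a mean of at least 5 CPM, were Olfm4, Spp1, Map3k20, Ephx1 and Ces2e. Their correlations were 0.954, 0.939, 0.935, 0.930 and 0.919. Olfm4, which encodes the secreted protein olfactomedin 4, had 8.55 ± 3.58 CPM in T-ND and 30.8 ± 11.5 in T-D (SD, n = 4 each), and 10.6 ± 2.07 in PT-ND and 52.7 ± 23.1 in PT-D (SD, n = 3 each). Spp1, which encodes osteopontin, had 1593 ± 235 CPM in T-ND and 2531 ± 596 in T-D, and 1612 ± 109 and 2575 ± 109 in PT-ND and PT-D. Map3k20, which encodes the stress kinase ZAK, was at 7.42 ± 0.63 CPM in T-ND and 16.1 ± 2.02 in PT-D.

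Most other p53 targets did not pass the test with STZ. A list of 58 further targets in 6 role groups was set beside the 10, and 57 of them had enough counts. Averaged over term and preterm mice, 4 of the 57 rose with STZ and none fell, by edgeR's quasi-likelihood test (DESeq2 called 6), against the 0.801% of all genes that rose. The median log2 fold change of the 57 was 0.12, against 0.01 for all genes. That of the 10 was 1.35, but they were chosen with their STZ difference known, so nothing is read from their distance to the 57. The 4 were Ephx1 (1.72 ± 0.18, adjusted p = 0.000225), Plk2 (1.06 ± 0.18, adjusted p = 0.00995), Ddit4 (1.70 ± 0.32, adjusted p = 0.0155) and Bbc3 (1.17 ± 0.25, adjusted p = 0.0230). Without PT-ND replicate 2 or PT-ND replicate 3 the count was 2. Ephx1 encodes the microsomal epoxide hydrolase, Plk2 a polo-like kinase, Ddit4 an inhibitor of mTORC1, and Bbc3 the BH3-only death protein PUMA.

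Ephx1 separated the groups as most of the 10 did. It had 46.0, 41.5, 34.1 and 47.0 CPM in T-ND and 36.8, 57.3 and 29 in PT-ND. It had 102, 186, 107 and 186 CPM in T-D and 107, 141 and 140 in PT-D. No STZ kidney overlapped with an untreated one, and the gene was a DEG in T-D compared to T-ND (1.77 ± 0.22, adjusted p = 0.0132), as the sole one of the 57, and in PT-D compared to PT-ND (1.66 ± 0.24, adjusted p = 0.00410). In T-D compared to T-ND it was the count of DEGs among the 57 that moved with the libraries: it was 0 without T-ND replicate 1, T-ND replicate 2 or T-D replicate 2 and 6 without T-ND replicate 3.

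By role, no group of the other targets held more than 2 DEGs with STZ on average. Of 13 targets in cell death, Bbc3 was a DEG with STZ on average, and 4 passed the adjusted p as higher and 1, Steap3 (−0.57 ± 0.14, adjusted p = 0.0393; named after its value was seen), as lower. The 4 higher ones included Pmaip1 (0.96 ± 0.16, adjusted p = 0.00702) and Fas (0.98 ± 0.25, adjusted p = 0.0461). In PT-D compared to T-ND, 5 of these 13 rose: Pmaip1 (1.23, adjusted p = 0.0227), Apaf1 (1.22, adjusted p = 0.0310), Tnfrsf10b (1.64, adjusted p = 0.0356), Bbc3 (1.67, adjusted p = 0.0380) and Fas (1.48, adjusted p = 0.0482). Pmaip1 encodes NOXA, Fas and Tnfrsf10b encode death receptors, and Apaf1 encodes the core of the apoptosome. With Ephx1 and Plk2, 7 of the 57 rose in that comparison, which spans both birth and STZ, against 0.995% of all genes. The count was 1 without T-ND replicate 1, T-ND replicate 4, PT-D replicate 2 or PT-D replicate 3, and 3 without T-ND replicate 2 or PT-D replicate 1.

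None of the 6 targets in DNA repair and nucleotide supply and none of the 5 in feedback on p53 was a DEG with STZ on average. At an unadjusted p under 0.05 there were 2 and 1, and the group medians were 0.05 and −0.03. Ddb2, which encodes the damage sensor of nucleotide excision repair, had a log2 fold change of 0.12 ± 0.23 (adjusted p = 0.812). Of 7 targets in growth arrest Plk2 rose, and Gadd45a (0.36 ± 0.18, adjusted p = 0.288) and Btg2 (0.42 ± 0.18, adjusted p = 0.208) did not pass. Of 14 in metabolism and oxidative stress Ephx1 and Ddit4 rose. Of 12 secreted, membrane and noncoding targets none was a DEG, and Gdf15, a secreted stress cytokine, was at 0.37 ± 0.23 (adjusted p = 0.412).

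**Figure D5:**
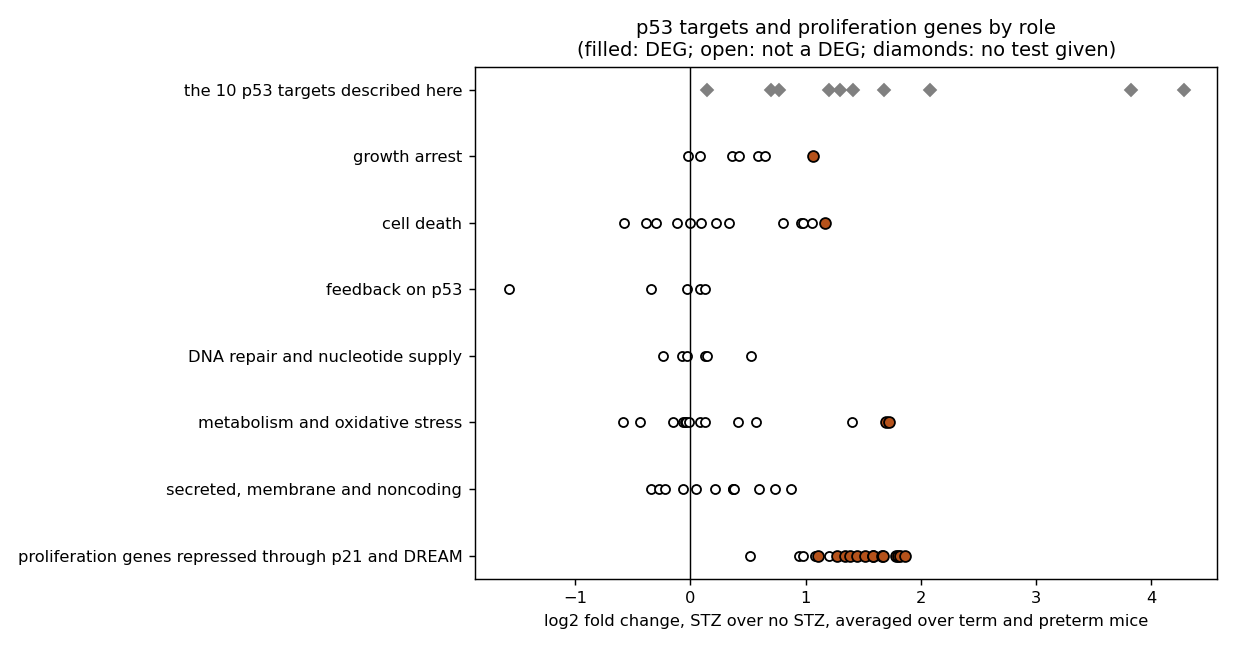
Log2 fold change with STZ, averaged over term and preterm mice (horizontal axis), of the 10 genes (diamonds, no test), of the other p53 targets by role, and of proliferation genes; filled points are DEGs. The 10 genes lie between 0.14 and 4.28, and 4 of the 57 other targets and 14 of the 19 proliferation genes are filled.

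Within preterm mice, 2 of the 57 rose with STZ (PT-D compared to PT-ND), Ephx1 and Sesn2, and 2 fell, Plk3 and Cd82. These counts lie close to the shares of all genes that rose (2.96%) and fell (1.99%), and 9 of the 57 were called without PT-ND replicate 1. Sesn2, which encodes the leucine sensor sestrin 2, had 41.1 to 119 CPM in T-ND, 50.3 to 86.4 in T-D, 60.9 to 84.2 in PT-ND and 124, 166 and 199 in PT-D. It rose in PT-D compared to PT-ND (1.15 ± 0.20, adjusted p = 0.00726) and compared to T-D (1.28 ± 0.21, adjusted p = 0.0377). That last call, the sole one of the 57, was lost without T-D replicate 1, T-D replicate 2, PT-D replicate 2 or PT-D replicate 3, where the count was 0. In PT-ND compared to T-ND none of the 57 was called by edgeR, 6 had an unadjusted p under 0.05, and DESeq2 called 2, as did edgeR without T-ND replicate 3.

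In the interaction 4 of the 57 passed, 2 in each direction, a number close to the share of all genes (1.98% higher and 2.46% lower). Cd82, which encodes a tetraspanin, had a log2 difference of −1.40 (adjusted p = 0.0346) and Plk3, a polo-like kinase, of −2.84 (adjusted p = 0.0358). Slc19a2, which encodes a thiamine transporter, was at 1.00 (adjusted p = 0.0262) and Kitl, which encodes stem cell factor, at 1.04 (adjusted p = 0.0497). The last 2 are named after their values were seen. The count was 0 without T-ND replicate 1, T-D replicate 3, PT-ND replicate 2, PT-ND replicate 3, PT-D replicate 2 or PT-D replicate 3. It was 1 without T-ND replicate 4 or PT-D replicate 1 and 2 without T-ND replicate 3.

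The transcript of p53 itself did not pass edgeR's test in any comparison. Trp53 had 35.7 ± 4.34 CPM in T-ND and 42.6 ± 6.40 in T-D (SD, n = 4 each), and 43.2 ± 4.81 in PT-ND and 50.1 ± 3.60 in PT-D (SD, n = 3 each), with a log2 fold change with STZ of 0.23 ± 0.10 (95% interval 0.01 to 0.46, adjusted p = 0.220). Each PT-D kidney (46.4 to 53.6 CPM) stood above each T-ND kidney (33 to 42.2), with a log2 difference of 0.48 (95% interval 0.20 to 0.77, adjusted p = 0.0659 by edgeR, and 0.0149 to 0.127 in the alternative fits). Mdm4, the partner of MDM2 in holding p53 down, was at 0.12 ± 0.15 (adjusted p = 0.695). None of the 17 genes of p53 and its regulators was a DEG with STZ on average by edgeR or DESeq2, and 3 had an unadjusted p under 0.05. In the interaction Rpl11, a ribosomal protein that binds MDM2, passed at −1.06 (adjusted p = 0.0492) and is named after its value was seen. Cdkn2a, the locus of p16 and p19ARF, was at or near 0 in every group (at most 0.232 ± 0.24 CPM, in PT-D). Of the 8 genes of the EDA2R ligand and its signalling none was a DEG with STZ on average, and 3 had an unadjusted p under 0.05. Eda, the ligand gene, had 0.466 ± 0.40 CPM in T-ND and 0.680 ± 0.17 in PT-D, and a log2 fold change with STZ of −0.16 ± 0.47.

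Among 15 genes of the repair of alkylated DNA and of STZ entry, Mgmt alone was a DEG with STZ on average. It encodes the methyltransferase that takes alkyl groups off guanine. It had 3.99, 3.75, 2.59 and 3.83 CPM in T-ND and 9.68, 16.2, 11.8 and 17.8 in T-D, without overlap. It had 4.85, 5.87 and 7.13 CPM in PT-ND and 5.64, 9.59 and 8.50 in PT-D, where the groups overlapped. It rose in T-D compared to T-ND (1.95 ± 0.25, adjusted p = 0.0132) and on average (1.19 ± 0.19, adjusted p = 0.00532), and the STZ difference was smaller in preterm mice by −1.55 on the log2 scale (adjusted p = 0.0317). With 1 library left out, that interaction remained a DEG in 8 of 14 fits and the call in term mice in 5 of 8. Slc2a2, the gene of GLUT2, was at 0.45 ± 0.16 (adjusted p = 0.124) and Parp1, whose enzyme senses strand breaks, at 0.05 ± 0.11 (adjusted p = 0.856).

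Genes of cell division that p21 and the DREAM complex repress were higher, not lower, with STZ. All 19 had a positive log2 fold change on average, with a median of 1.45. By edgeR's test 14 rose (DESeq2 called 15), against 0.801% of all genes, and none was lower. Mki67, the gene of the proliferation antigen Ki-67, had 1.80 ± 1.34 CPM in T-ND and 5.79 ± 1.08 in T-D (SD, n = 4 each), and 2.76 ± 1.58 in PT-ND and 6.45 ± 1.5 in PT-D (SD, n = 3 each; 1.45 ± 0.38, adjusted p = 0.0490). Top2a, the DNA topoisomerase of dividing cells, rose by 1.78 ± 0.32 on the log2 scale (adjusted p = 0.0125). Birc5, which encodes survivin, rose by 1.52 ± 0.22 (adjusted p = 0.00305), with 0.677 to 1.35 CPM in T-ND and 2.91 to 5.28 in T-D. The other 11 that rose were Ccnb1, Ccnb2, Cenpf, Cdc20, Plk1, Aurka, Cdk1, Bub1, Bub1b, Nusap1 and Tpx2, genes of mitotic cyclins, kinases and spindle or checkpoint proteins, with log2 fold changes from 1.10 (Aurka) to 1.87 (Bub1). Kif23, which encodes a kinesin of cytokinesis, and Foxm1, a transcription factor of the mitotic genes, rose in PT-D compared to PT-ND (1.11, adjusted p = 0.0271, and 1.67, adjusted p = 0.0457), calls kept in 2 of 6 and 1 of 6 fits with 1 library left out. In that comparison 4 of the list were DEGs, with 2.96% of all genes higher. The 4 became 0 without PT-ND replicate 2 or PT-D replicate 3, 1 without PT-ND replicate 3 and 6 without PT-ND replicate 1. In T-D compared to T-ND 1 of the 19, Birc5, was a DEG (DESeq2 called 12), with 0.0539% of all genes higher. That count was 9 without T-ND replicate 3 and 0 without T-ND replicate 1. Levels were low throughout and the number that rose on average, 14, moved with single libraries, from 3 without PT-ND replicate 2 to 17 without T-ND replicate 3, while the median stayed between 1.35 and 1.64. It was 5 without PT-D replicate 3, 6 without PT-ND replicate 3, 7 without T-ND replicate 2 or T-D replicate 3, 8 without T-ND replicate 1, T-ND replicate 4, T-D replicate 2 or PT-D replicate 2, and 9 without PT-D replicate 1. The groups with STZ thus had more Cdkn1a transcript and also more of these transcripts than those without. Between the groups without STZ, Cdkn1a had a mean of 119 CPM in PT-ND and 70.3 in T-ND. Of the 19, 12 were higher and 7 lower in PT-ND, with 0 at an unadjusted p under 0.05. Which cells held either transcript cannot be told from whole kidney.

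Of 10 senescence markers none was a DEG with STZ on average (DESeq2 called 1, and 4 had an unadjusted p under 0.05). Ccl2, which encodes a chemokine for monocytes, had 36.9 ± 4.35 CPM in T-ND, 75.6 ± 27.9 in T-D, 97.9 ± 13.6 in PT-ND and 26 ± 15.3 in PT-D. Its level was higher in PT-ND than in T-ND (1.41, adjusted p = 0.00649) and lower in PT-D than in PT-ND (−1.92, adjusted p = 0.00775), and the interaction was −2.95 (adjusted p = 0.00792). Il6 (−4.42, adjusted p = 0.0326) and Cxcl1 (−3.14, adjusted p = 0.0372) also passed in the interaction and are named after their values were seen. Among all genes 2.46% were DEGs with a lower STZ difference in preterm mice.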

How the data were processed

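Whole left kidneys of 14 mice were sequenced as unstranded, poly(A)-selected libraries. The authors trimmed the reads, aligned them to GRCm39 with STAR and deposited raw counts per gene, unstranded and by strand, and the unstranded counts were used. Uniquely mapped reads on more than 1 gene were not counted by the authors. Libraries held 16697246 to 28673176 counts on genes (median 18765582), and intervals below cover the spread between libraries. The study used GENCODE release M36. Symbols and GRCm39 positions here are those of release M39, in which 56236 of 56980 gene IDs were found.

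As in the study, only genes with more than 10 counts in all were kept. Tests were two-sided quasi-likelihood tests (edgeR 4.0.16, R 4.3.3) with TMM factors and Benjamini-Hochberg adjustment over all genes tested. A comparison of a pair of groups used the libraries of those groups alone, whereas the STZ average and the interaction used all 14. The study used DESeq2, which is an alternative here (version 1.42.0). The other alternatives were RLE normalization, no filter or filterByExpr, a joint fit, the suffix of the library name as a covariate, a replicate block, the sum of both strands, the adjusted p alone, and each library left out in turn. On simulated data with 200 changed genes the procedure was tested and recovered most of them. These were well-covered genes with a large change of fixed size, and all genes had the same spread. The simulation therefore gives no measure of power for smaller changes, low counts or a wider spread.

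The members and all lists were chosen with earlier results of these data known. Genes named are the 10 members, the other p53 targets and genes of the further lists that were DEGs in a comparison with STZ or that were fixed to be named, and the 5 genes most like the members. Any other is said to be named after its values were seen. Replicate numbers are those of the labels. Levels per kilobase divide CPM by the exon length of all transcripts together.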

Additional observations from a re-analysis of the deposited data

Results flagged for a closer look

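In groups of 4, the highest or lowest library was set against the gap to its neighbour by Dixon's test, in 104 groups of values (T-ND and T-D for each of 52 named genes). It picked out 12, where chance gives about 5% of groups. Of the 10 p53 targets, Psrc1 stood out in T-ND replicate 3 with 0.673 CPM (the others 0.266 to 0.316), Zmat3 in T-ND replicate 4 with 15.5 CPM (the others 17.4 to 17.6), and Mdm2 in T-D replicate 2 with 94.0 CPM (the others 65.8 to 69.7). T-ND replicate 3 was also far above the other T-ND kidneys in Plk3 (123 CPM, the others 20.1 to 30.1), Trp53 (42.2 CPM, the others 33 to 34), Top2a (2.90 CPM, the others 0.705 to 1.01) and Ccnb1 (1.55 CPM, the others 0.451 to 0.531). Cdkn2a was at 0.135 CPM in T-ND replicate 2 and at 0 in the others. Ccl2 was at 43.4 CPM in T-ND replicate 4 (the others 33.9 to 35.3). Ccnb2 was lowest in T-D replicate 2 with 2.41 CPM (the others 4.84 to 5.12), and Eda was highest in T-D replicate 1 with 0.728 CPM (the others 0.318 to 0.377). Slc34a1 was lowest in T-D replicate 4 with 2211 CPM (the others 4524 to 4834).

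By the interaction test in edgeR, the STZ difference was larger in preterm mice for Zmat3 (1.00 on the log2 scale, adjusted p = 0.0301) and Havcr1 (7.18, adjusted p = 0.0187). It was lower for Plk3 (−2.84, adjusted p = 0.0358), Cd82 (−1.40, adjusted p = 0.0346), Mgmt (−1.55, adjusted p = 0.0317) and Ccl2 (−2.95, adjusted p = 0.00792). The calls of Zmat3, Plk3, Cd82 and Mgmt were lost in some fits with 1 library left out. Preterm mice also differed in delivery and fostering, and some PT-D mice of the study in a second round of STZ. Plk3 had 225 to 515 CPM in PT-ND, against 20.1 to 123 in T-ND, 82.3 to 170 in T-D and 120 to 161 in PT-D. The cause of these differences was not tested.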

How the results depend on the processing

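The median log2 fold change of the 10 p53 targets stayed within the spread between libraries (0.185) in all 7 comparisons under every alternative fit that left no library out. With 1 library left out it ranged from 1.21 to 1.62 in T-D compared to T-ND, the highest without T-ND replicate 3. Counts of DEGs moved more. Of the 10 targets, 3 were DEGs in T-D compared to T-ND, 6 with DESeq2, 5 with no filter on low counts and 1 to 6 with a library left out. The 1 DEG in the interaction, Zmat3, was 0 with DESeq2, RLE normalization or filterByExpr, where its size fell just under the limit, and 0 to 1 with a library left out. Of the 57 other targets, the 1 DEG in T-D compared to T-ND became 7 with DESeq2, 4 with no filter, 4 in the joint fit, 2 with the suffix covariate and 0 to 6 with a library left out. In PT-D compared to PT-ND 4 became 14 by the adjusted p alone and 3 to 9 with a library left out, and for the STZ average 4 became 9 and 2 to 6. In PT-D compared to T-ND 7 became 1 to 10 with a library left out. In PT-ND compared to T-ND 0 became 2 with DESeq2, 1 with no filter, the joint fit or the suffix covariate, and 0 to 2. In PT-D compared to T-D 1 became 3 with DESeq2 or no filter, 2 in the joint fit, 0 with filterByExpr or the suffix covariate, and 0 to 1. In the interaction 4 became 2 with RLE normalization and 0 to 5 with a library left out. Single genes kept their direction in each called fit. The cause of these shifts was not tested.

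The labels do not say that replicate numbers pair mice. Libraries with the same number had correlated deviations of −0.326 to 0.260 in 19 pairs, with 3 above 0.1. Of 14 libraries 1 was closest to one of its own number. These values cannot show whether mice were paired. The study used litter mates of treated mice as untreated controls. The labels do not give the litters, so litter was not modelled and the libraries were treated as independent. With a replicate block the DEGs among the 57 other targets were 3 in T-D compared to T-ND, 3 in PT-D compared to T-ND and 2 in the interaction, and the proliferation genes that rose on average were 9 of 19.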
